A study of Mus musculus with 6 samples.

Results

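Runs of neighbouring open chromatin regions that were all more accessible in the same cell type were described side by side for ILC1s and NK cells of the mouse liver. The regions carry a running number, peak_0 onwards, and were read in that order. Their counts were scaled to the total of their library, as CPM. A region was scored for a cell type if its mean CPM over the 6 libraries was at least 1 and its mean in that type was at least 2 times the mean in the other. Every unbroken stretch of 5 or more regions scored for the same type was kept as a run. The members were therefore chosen by their measured ILC1 to NK ratio in all 6 libraries, and that ratio is given below as a description, without a test. Of 107945 regions, 1271 were members, namely 624 regions in 104 ILC1 runs and 647 regions in 102 NK runs.

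In ATAC-seq the transposase Tn5 inserts adapters into DNA that is not wrapped in nucleosomes, and the fragments recovered from a region count its accessibility. Open regions are not spread evenly over the genome. Enhancers that act on the same gene often lie in clusters, and whole domains around lineage genes can be open in one cell type and closed in a related one. Group 1 innate lymphoid cells of the liver comprise circulating NK cells, which kill target cells and depend on the transcription factor Eomes, and tissue-resident ILC1s, which develop without it. Both use T-bet and make interferon gamma.

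Accessibility was compared between ILC1s and NK cells of the liver, with 3 libraries each, all from male C57BL/6J mice aged 24 weeks and named control, with no other allele or agent given. The gates printed in the study's methods included CD3-, F4/80-, NK1.1+ and CD49b- for both types and differed only in CD49a, which was positive in ILC1s and negative in NK cells. The staining list there names antibodies to CD49b and NKp46 and none to CD49a. Whether animals were pooled is not stated, so the spread between libraries may be partly technical. Position and gene of a region were not used here. The labelled cell types were therefore not checked against marker loci, and the distance in bases between neighbouring numbers is unknown. Neighbours may be pieces of one open domain.

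The columns could not be matched to numbered samples, and the libraries are named by falling total. NK A, NK B and NK C held 12302602, 11279588 and 8526923 fragments in regions, and ILC1 A, ILC1 B and ILC1 C held 6916979, 6103178 and 5687282. No ILC1 library was as deep as an NK library, so effects of depth and of cell type cannot be told apart. Libraries of the same type were not duplicates of each other: their chi-square over regions was 1.42 to 3.25 times its degrees of freedom, and all 6 were kept apart.

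ILC1 runs and NK runs were nearly equal in number, and their order changed with the scaling of the libraries (94 and 111 with TMM factors), but the longest were NK runs. Among the 57792 regions with a mean CPM of at least 1, 9968 (17.2%) were scored for ILC1s and 9453 (16.4%) for NK cells. Runs held 6.26% of the regions scored for ILC1s and 6.84% of those scored for NK cells. Exactly 5 regions made up 53 of the ILC1 runs and 50 of the NK runs. The longest ILC1 runs had 10 regions, which 3 runs reached, whereas 9 NK runs had 10 or more and the longest had 15. Counting runs of 8 or more, 15 were ILC1 runs and 16 were NK runs.

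**Figure D1:**
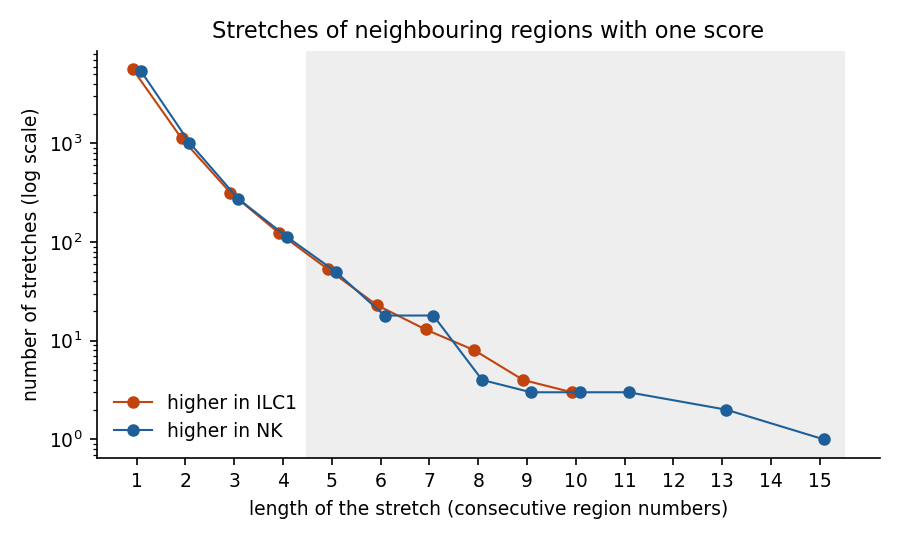
Number of unbroken stretches (vertical axis, log scale) by their length in consecutive region numbers, for regions scored for ILC1s (orange) and for NK cells (blue), with points shifted sideways by a small amount and stretches long enough to be runs on grey. The curves lie close together up to 6 regions, and beyond 10 regions there are NK runs only, at 11, 13 and 15.

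The summed CPM of each of the 5 named ILC1 runs was higher in every ILC1 library than in any NK library. The run peak_48621 to peak_48630 had the largest median ratio of the ILC1 runs. Its 10 regions together gave 209.9, 259 and 236 CPM in ILC1 A, B and C and 13.6, 11.5 and 11.7 CPM in NK A, B and C. No library of the lower type came near the higher one, and the means were 235 ± 24.3 against 12.3 ± 1.13 CPM (SD, n = 3 each), 19.1-fold apart. The tallest region, peak_48626, held 39.6% of the run's CPM and averaged 89.98 CPM in ILC1s and 7.77 in NK cells. At its other extreme, peak_48623 averaged 2.32 CPM in ILC1s with 1 fragment in all NK libraries together. The region 3 places before the run was open in both cell types, at 59.8 to 63.6 CPM in ILC1 libraries and 46.0 to 48.9 in NK libraries.

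Most fragments among ILC1 runs, 6008 over the 6 libraries, fell in peak_2990 to peak_2999. The summed level was 229, 257 and 224 CPM in ILC1 A, B and C and 55.8, 48.3 and 40.7 CPM in NK A, B and C, a ratio of 4.91 between the means. Accessibility in NK cells varied widely along this run. The smallest ratio was in peak_2998, the tallest region, with 54.8, 54.6 and 49.8 CPM against 29.6, 23.9 and 19.6 CPM. Its neighbour 3 places earlier, peak_2995, had 22.0, 30.6 and 20.04 CPM against 1.87, 0.709 and 0.704 CPM, a ratio of 22.1. The ratio thus varied 10-fold or more between regions of the same run while its direction did not change.

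The other named ILC1 runs, taken for their length, showed the same separation of libraries. In peak_33381 to peak_33390 the sums were 183, 142 and 157 CPM in ILC1 A, B and C against 36.4, 28.7 and 32.3 CPM in NK A, B and C, and peak_33386 alone held 45.7% of the run. In peak_84490 to peak_84498 they were 195.9, 182 and 187 CPM against 24.2, 17.9 and 20.2 CPM. The fragments of this run were spread more evenly, with 23.0% in its tallest region, and its ratio peaked in the middle, at 50.3 in peak_84494 and 38.1 in peak_84495. In peak_105241 to peak_105249 they were 185, 162 and 161 CPM against 41.9, 29.4 and 28.3 CPM. NK A had the highest NK sum in each of these 3 runs.

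**Figure D2:**
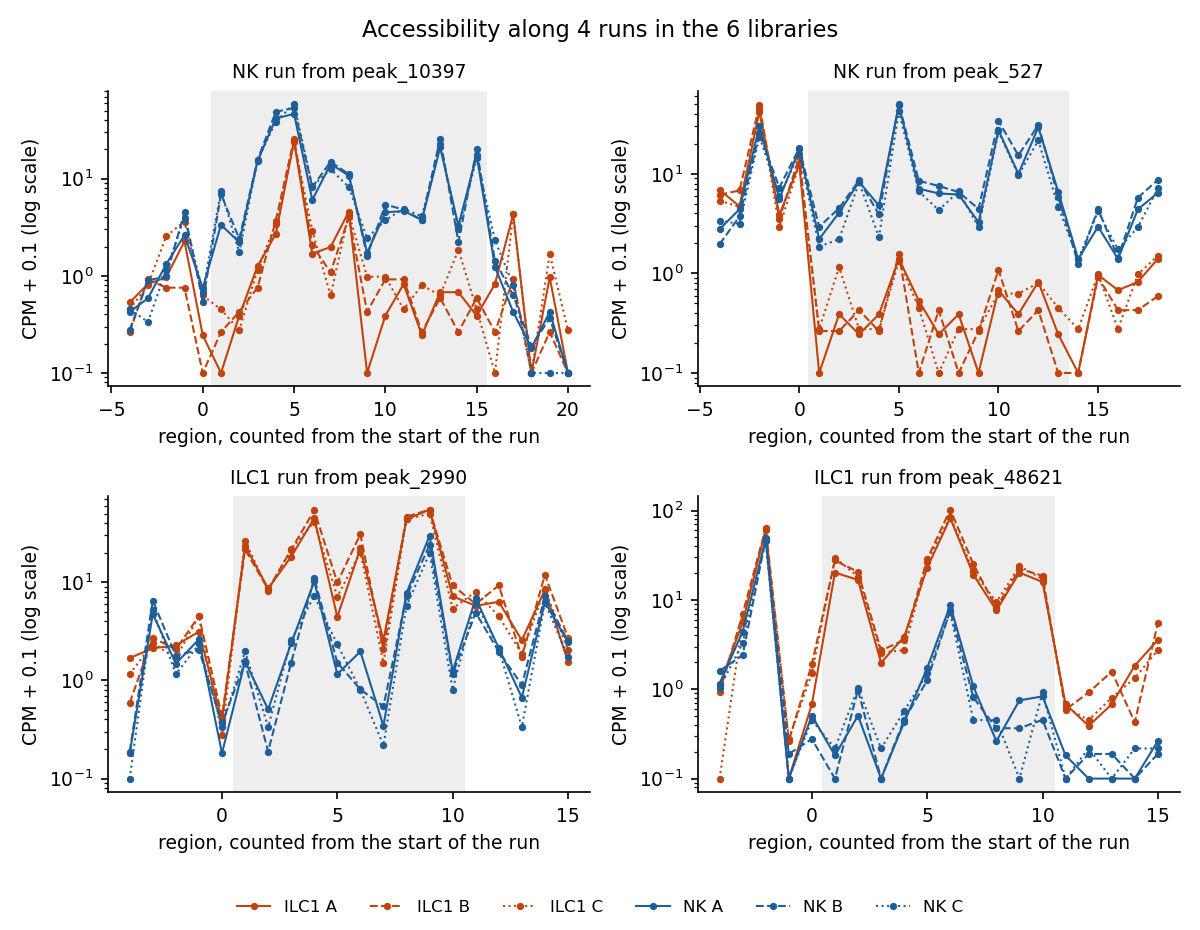
CPM plus 0.1 on a log scale for each library along 4 runs (grey) and the 5 regions on either side, with regions counted from the start of the run and a level of no fragments drawn at 0.1. Orange lines are the 3 ILC1 libraries and blue lines the 3 NK libraries. In peak_527 every region of the run has the blue lines above the orange ones, and 3 places before the first region, at -2 on the axis, the order is the reverse (42.1 to 49.0 CPM in ILC1 libraries and 23.6 to 29.9 in NK libraries).

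The highest ratios of summed CPM were found in NK runs. Fragment numbers are not compared between the types of run, since the NK libraries were deeper. The longest, peak_10397 to peak_10411 with 15 regions, gave 194.7, 224 and 207 CPM in NK A, B and C and 38.8, 40.5 and 41.7 CPM in ILC1 A, B and C. The means were 208 ± 14.6 and 40.3 ± 1.47 CPM, 5.17-fold apart. Most of the ILC1 signal was in 1 region: peak_10401 averaged 24.5 CPM in ILC1s and 52.8 in NK cells, while peak_10409 averaged 0.532 and 23.1. The next region but one after this run, a non-member, went the other way, with 4.19, 0.819 and 4.22 CPM in ILC1 A, B and C and 0.325, 0.532 and 0.704 CPM in NK A, B and C.

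Close to silent in ILC1s was the run peak_527 to peak_539. It gave 164, 182 and 139 CPM in NK A, B and C and 4.63, 4.26 and 5.63 CPM in ILC1 A, B and C, so that 90 fragments in all ILC1 libraries stood against 5254 in NK libraries. In 9 of its 13 regions no ILC1 library had more than 3 fragments. The ratio of the means was 33.4, and across its regions the level in NK cells still ranged from 2.24 CPM in peak_527 to 47.2 CPM in peak_531.

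Of the other long NK runs, 3 were named, with ties in length broken by fragments. For peak_58848 to peak_58860, 13 regions, the sums were 323, 309.9 and 293 CPM in NK A, B and C and 57.8, 68.3 and 65.4 CPM in ILC1 A, B and C. Regions with ratios just over 2 (2.09 in peak_58849, 2.18 in peak_58852, 2.24 in peak_58853) stood here beside peak_58856 with 84.5 CPM in NK cells and 5.40 in ILC1s. For peak_50858 to peak_50868 they were 319.6, 324 and 270.0 against 20.2, 27.4 and 22.7 CPM. For peak_105163 to peak_105173 they were 278, 294 and 289 against 33.0, 34.9 and 34.5 CPM, with SDs of 8.22 and 1.02 CPM. This last run had the smallest spread between NK libraries of the 7 named NK runs, at 2.87% of the mean, and held both the steep peak_105170 (89.1, 95.5 and 92.7 against 0.578, 0.983 and 1.23 CPM) and the shallow peak_105166 (69.3, 69.8 and 71.2 against 23.7, 26.9 and 25.5 CPM).

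The run with the most fragments, 13444, was peak_52563 to peak_52570. Its 8 regions gave 396, 411 and 387 CPM in NK A, B and C and 34.8, 28.0 and 38.3 CPM in ILC1 A, B and C, 11.8-fold apart. Its tallest region, peak_52564, averaged 159 ± 14.0 CPM in NK cells and 17.2 ± 0.902 in ILC1s. The region just before the run, peak_52562, missed membership on level alone, at 1.93 CPM in NK cells and 0.0546 in ILC1s.

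Across all runs, the summed level of the higher type over the lower ranged from 2.16 to 19.1 with a median of 4.07 in ILC1 runs and from 2.33 to 41.1 with a median of 4.96 in NK runs. The top of the NK range was peak_95278 to peak_95282, named here after its values were seen, with 78.7 ± 10.8 CPM in NK cells and 1.91 ± 0.290 in ILC1s. Set against libraries rather than means, the lowest library of the higher type was at least 1.61 times the highest of the lower type in every ILC1 run and at least 1.79 times in every NK run. The 2 cell types thus did not overlap in the sum of any run, as the choice of members largely fixes.

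Region by region, the median log2 ratio of ILC1 over NK on the scale of CPM plus 0.1 was 2.19 in ILC1 runs and -2.58 in NK runs. Scored regions outside runs, chosen by the same 2-fold minimum, had medians of 1.66 and -1.81. A ratio of 4 or more was found in 58.5% of ILC1 run members and 69.9% of NK run members, against 39.3% and 46.7% of the scored regions outside. Members also stood at higher levels, with a median of 4.61 mean CPM in ILC1 runs and 4.98 in NK runs against 2.96 and 2.76 outside. These differences were not tested, since the rule used the same contrast. All 1271 members passed the filter on level, which is part of the rule.

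By edgeR's quasi-likelihood test with Benjamini-Hochberg adjustment over all tested regions (adjusted p under 0.05 and fold over 1.5), 621 of 624 ILC1 run members and 644 of 647 NK run members were called in the direction of their run. Among all tested regions 15.9% were called higher in ILC1s and 15.6% higher in NK cells, and among those with a mean CPM of at least 1 the shares were 21% and 22%. All 3 libraries of the higher type lay above all 3 of the other in 613 ILC1 run members and 642 NK run members, against 31.1% (ILC1 above NK) and 30% (NK above ILC1) of regions with a mean CPM of at least 1. Because the members were selected on this contrast, nothing is read from these counts.

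In part of the members the lower cell type was close to the detection limit, with a larger share in NK runs than in ILC1 runs. No more than 3 fragments in any library of the lower type were found in 47 members of ILC1 runs (7.53%) and 132 members of NK runs (20.4%), against 6.21% and 14.9% of scored regions outside runs. The lower type in NK runs is the ILC1s, whose libraries were shallower, and the part of depth in this difference was not tested. No fragment at all was counted in the lower type in 1 ILC1 run member and 5 NK run members. Against a floor of 3 fragments over the 3 libraries, peak_88130 was at least 29.1-fold higher in ILC1s, and the NK run members peak_38413, peak_41281, peak_42759, peak_58839 and peak_95259 were at least 15.2-fold to 19.2-fold higher in NK cells. These 6 regions lie beyond the median on either treatment, so it is unchanged by setting them to the bound. No run consisted wholly of such near-silent regions, and 70 ILC1 runs and 40 NK runs had none.

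Regions of the same run differed in the size of their ratio. The SD of the log2 ratio between regions of a run was 0.85 in ILC1 runs and 1.13 in NK runs. Run means, which average 5 or more regions and so vary less than single regions, had an SD of 0.65 and 0.74 between runs. Levels varied more, with a within-run SD of log2 mean CPM of 1.41 and 1.42. No run had all its regions within 2-fold of each other in level, and 63 ILC1 runs and 51 NK runs spanned 10-fold or more. The tallest region held a median of 41.2% of a run's CPM in ILC1 runs and 42.1% in NK runs, and lay at an end of the run in 35 and 31 of them.

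Ratios were steeper inside runs than at their ends. In ILC1 runs the median log2 ratio was 1.95 in the first and last regions, 2.26 in the next ones inward and 2.31 further in. In NK runs it was -2.31, -2.38 and -3.08. Median levels followed the same order, at 3.95, 4.80 and 5.33 CPM in ILC1 runs and 4.01, 4.68 and 5.93 CPM in NK runs. Short and long runs contribute unequally to these places, as a run of 5 has a single region further in than the next to the end.

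The thresholds set where a run ended. The ILC1 run member nearest the ratio limit was peak_103339 at 2.00, with 3.75 CPM in ILC1s and 1.87 in NK cells, and the nearest excluded neighbour was peak_29985 at 1.93. For NK runs these were peak_45834 at 2.01 and peak_50166 at 1.98, the latter with 236 CPM in NK cells and 119 in ILC1s. On level, peak_17180 was just inside at a mean of 1.00 CPM and peak_85702 at 1.02, and peak_83524 and peak_52562 just outside at 0.964 and 0.994.

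Regions next to runs were mostly weak or moved the same way by less. Weak regions were common throughout, as only 57792 of 107945 regions reached 1 CPM, so the weak endings are not read as a trait of runs. At the 208 ends of ILC1 runs, where 2 flanking regions lie between a pair of runs and are counted for both, 66 flanking regions had a ratio of at least 2 in the run's direction but a level under 1 CPM, 42 were under that level without such a ratio, 75 reached the level with a ratio under 2 in the run's direction, 20 did so in the other direction and 5 were scored for NK cells. At the 204 ends of NK runs, the counts were 67, 43, 72, 14 and 8. A region scored for the other cell type was thus the least frequent ending. Of the flanking regions that reached 1 CPM, each counted once, 5.10% at ILC1 runs were scored for NK cells. At NK runs 8.51% were scored for ILC1s. Over all regions of that level, 16.4% were scored for NK cells and 17.2% for ILC1s. Those include regions with the run's own score, which the rule bars from this place, so the shares are not like for like. A flanking region under 1 CPM was not counted here, whatever its ratio.

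Beyond that first flanking region, which cannot be a same-scored region by the rule, neighbours outside runs still tended to share the run's direction. Between 2 and 5 steps from a run, 500 non-members near ILC1 runs reached 1 CPM, of which 190 (38%) were scored for ILC1s and 28 (5.6%) for NK cells. Near NK runs, 224 of 468 (47.9%) were scored for NK cells and 19 (4.06%) for ILC1s. Over all regions of that level the shares were 17.2% for ILC1s and 16.4% for NK cells. Non-members this near a run cannot form 5 in a row, and regions are not independent, so the shares are given without a test. Further out the shares varied from step to step: at 19 steps, 15.7% of non-members near ILC1 runs and 33.3% near NK runs carried the run's score, and at 20 steps 23.2% and 15.7%.

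**Figure D3:**
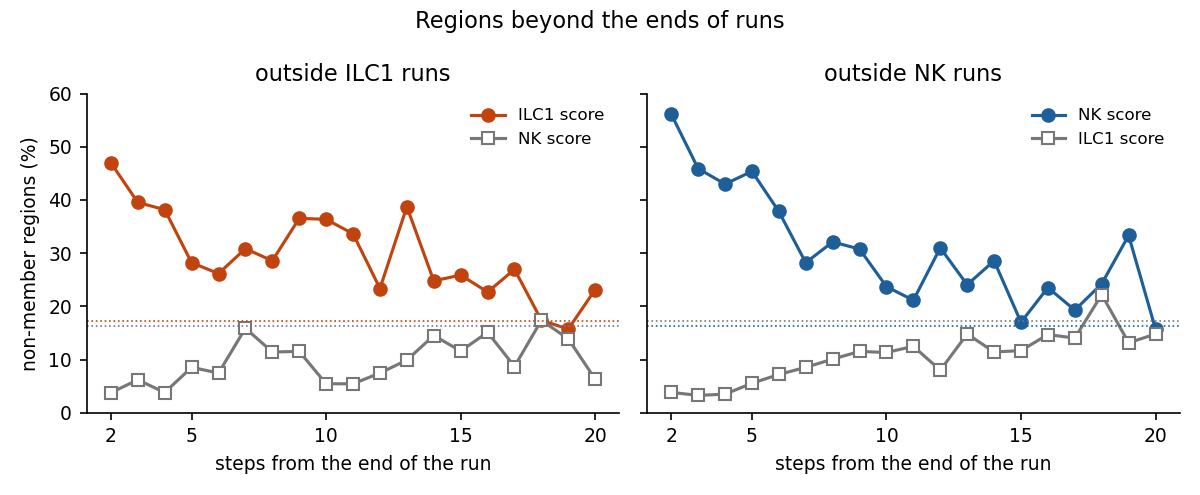
Share of non-member regions with a mean CPM of at least 1 (vertical axis, percent) by steps from the end of a run, outside ILC1 runs (left) and NK runs (right). Filled points carry the score of the run, open squares the opposite score, and dotted lines are the shares over all regions of that level, 17.2% for ILC1s and 16.4% for NK cells. Same-score shares start at 47.0% and 56.2% at 2 steps and fall unevenly with distance, and opposite scores start at 3.79% and 3.85% and rise unevenly.

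The likeness of neighbours was measured over the whole table, with pairs inside runs included, and was not recomputed without them. Over pairs of regions that both reached 1 CPM, Pearson's r of the log2 ratio was 0.43 at 1 step (38998 pairs), 0.34 at 2 steps, 0.14 at 10 steps, 0.06 at 20 steps and -0.01 at 1000 steps. These are correlations across regions that share libraries, not replicates. The region after one scored for ILC1s was scored for ILC1s in 26.6% of cases and for NK cells in 3.98%. After one scored for NK cells, 26.0% were scored for NK cells and 4.27% for ILC1s. All regions together were scored for ILC1s in 9.23% and for NK cells in 8.76%, and those reaching 1 CPM in 17.2% and 16.4%. Neighbours were also alike in level, with r of log2 level at 0.37 over all 107944 pairs at 1 step. Likeness in level and in direction were not separated in these shares. That the numbers follow genome position is not stated in the sources used here, and the fall of r with steps is what the data show of it.

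**Figure D4:**
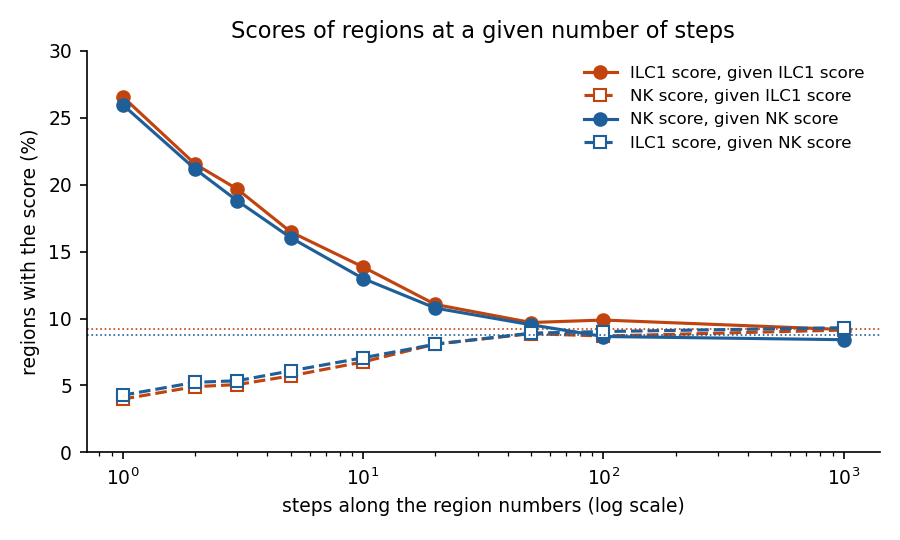
Share of regions with a given score (vertical axis, percent) at a number of steps (log scale) from a region scored for ILC1s (orange) or NK cells (blue), with filled circles for the same score and open squares for the opposite one. Dotted lines are the shares over all regions, 9.23% for ILC1s and 8.76% for NK cells, to which the curves come close at 50 steps.

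The runs closest to each other were mostly of the same type, which did not extend to pairs further apart. Of 205 successive pairs of runs along the numbering, 104 joined an ILC1 run and an NK run, 52 joined ILC1 runs and 49 joined NK runs, with a median of 330 regions between them and at most 2209. In the 19 pairs with 10 or fewer regions between, 11 joined ILC1 runs, 7 joined NK runs and 1 joined both types. Up to 50 regions between, 9 of 33 pairs joined both types. The mixed pair within 10 regions was the NK run peak_1359 to peak_1363 and the ILC1 run peak_1369 to peak_1373, 5 regions apart, with 70.7 against 10.7 CPM (NK, ILC1) in the former and 15.9 against 50.8 CPM in the latter. At most 1 region lay between ILC1 runs in 2 pairs, peak_29979 to peak_29984 with peak_29986 to peak_29990, and peak_88223 to peak_88227 with peak_88229 to peak_88233. The region excluded between the former, peak_29985, was the near miss named above. These runs were picked out after their values were seen.

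Where single unscored or low regions were bridged, longer stretches appeared. The longest ILC1 stretch ran from peak_95492 to peak_95515, with 18 scored regions and 6 bridging ones. The longest NK stretches were peak_58845 to peak_58870, with 23 scored and 3 bridging, and peak_50855 to peak_50878, with 20 and 4, and both of these NK stretches contain a run described above. With the numbering cut into 10 equal blocks, every block held runs, namely between 8 and 14 ILC1 runs and between 4 and 14 NK runs.

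Together the runs took a small share of each library, which was close between the libraries of the higher type. ILC1 runs held 0.866%, 0.869% and 0.850% of the fragments of ILC1 A, B and C and 0.235%, 0.209% and 0.203% of NK A, B and C. NK runs held 1.07%, 1.10% and 1.03% in NK A, B and C and 0.203%, 0.194% and 0.207% in ILC1 A, B and C. Among libraries of the lower type, NK A stood above NK B and NK C in ILC1 runs. Its median deviation from the mean of the other NK libraries over ILC1 run regions was 0.19 (log2), against 0.05 over all regions with a mean CPM of at least 1 and 0.20 in regions scored for ILC1s outside runs. ILC1 B and ILC1 C deviated by -0.14 and 0.14 in NK run regions, against -0.11 and 0.09 in regions scored for NK cells outside runs and 0.00 and 0.01 over all regions of that level.

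The direction of runs held in libraries that took no part in choosing them. Each library was left out in turn, runs were found from the remaining 5, and the library left out was set against the mean of the other cell type. Without it, 92 to 114 ILC1 runs and 98 to 104 NK runs were found. Of their regions, 91.2% to 96.6% in ILC1 runs and 92.6% to 96.7% in NK runs differed at least 2-fold in the same direction in the library left out. Over all regions with a mean CPM of at least 1 in the 5 libraries, the shares were 16.4% to 19.9% and 15.5% to 19.5%. The lowest value, 91.2%, belonged to ILC1 B. The libraries of the other cell type had entered the choice, so this is a check of 1 library at a time and carries no p-value.

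Summed over a run, the library left out differed at least 2-fold in every NK run in 5 of the 6 cases, and in 103 of 104 without NK C. In ILC1 runs it did so in all 96 without ILC1 A, in 110 of 114 without ILC1 B, in 103 of 104 without ILC1 C, in 108 of 112 without NK A, in 95 of 96 without NK B and in all 92 without NK C. The exact extent was less stable than the direction. Every region of the run stayed in a run whichever library was left out for 53 of 104 ILC1 runs and 58 of 102 NK runs, while 17 and 9 runs stayed whole in 3 or fewer of the 6 cases.

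Spread between libraries of the same cell type does not use the contrast of the rule. In the higher type, a run's summed CPM had a median coefficient of variation (CV) of 6.80% over the 3 ILC1 libraries in ILC1 runs and 7.19% over the 3 NK libraries in NK runs, where counting alone gives 4.78% and 3.53%. In NK runs NK C was the lowest NK library in 72 of 102. NK C was also low in general, with a median deviation of -0.05 (log2) over all regions with a mean CPM of at least 1, against -0.09 in NK run regions, and it had the lowest TMM factor, 0.966. In ILC1 runs the lowest library was ILC1 A, B or C in 29, 34 and 41. The CV was over 2 times that of counting in 31 of 104 ILC1 runs and 59 of 102 NK runs. The counting CV was smaller in NK runs, as given above, so these counts are not compared between the types.

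A few runs differed more widely between libraries. The highest library of the type exceeded the lowest by more than 1.5-fold in 5 ILC1 runs and 5 NK runs, a limit set after the values were seen. In all 5 ILC1 runs ILC1 B was the lowest. The widest was peak_91415 to peak_91419, with 43.8, 11.6 and 24.8 CPM in ILC1 A, B and C and 5.45, 4.26 and 4.57 CPM in NK A, B and C, a CV of 60.5% where counting gives 9.03%. Its first region, peak_91415, differed less between the ILC1 libraries, at 11.9, 9.67 and 7.21 CPM, with ILC1 C the lowest. The next 4 differed far more: peak_91417 had 12.3, 0.655 and 6.68 CPM, and peak_91418 had 10.6, 0.164 and 4.57 CPM, where the NK libraries had 0.163, 0.0887 and 0 CPM and 0.244, 0.266 and 0.235 CPM. ILC1 B held 4 fragments in the former region and 1 in the latter, too few to order it against the NK libraries, and was far under ILC1 A and C in both. The other 4 were peak_98731 to peak_98735 with 14.0, 7.37 and 16.5 CPM in ILC1 A, B and C, peak_38507 to peak_38513 with 33.7, 18.8 and 39.0, peak_71099 to peak_71103 with 18.8, 12.9 and 22.0, and peak_84707 to peak_84712 with 41.4, 29.98 and 48.9.

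In 4 of the 5 NK runs the highest library was NK C, although it was low in general as given above. One of them is the NK run with the largest median ratio, peak_13405 to peak_13413, with a median log2 ratio of -5.05. Its sums were 94.5, 145 and 171 CPM in NK A, B and C and 13.7, 12.5 and 13.01 CPM in ILC1 A, B and C. NK A was the lowest NK library in each of its 9 regions, for instance 24.1, 29.0 and 41.6 CPM in peak_13411 and 18.0, 21.4 and 24.8 CPM in peak_13413. The others were peak_42759 to peak_42763 with 26.7, 25.6 and 46.2 CPM in NK A, B and C, peak_38409 to peak_38414 with 67.2, 70.8 and 109 CPM, and peak_20493 to peak_20499 with 28.3, 38.1 and 47.4 CPM. The fifth, peak_86391 to peak_86395, ran the other way with 39.2, 35.2 and 25.9 CPM. In summed CPM, all 10 runs kept their cell type order in every library, while in the single regions peak_91418 and peak_98733 the ILC1 and NK libraries overlapped at low counts.

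**Figure D5:**
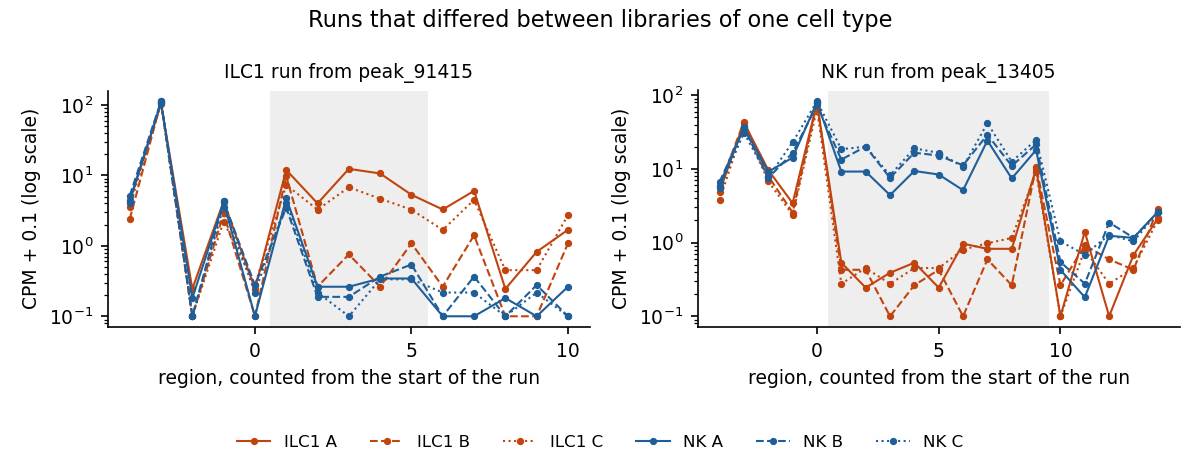
CPM plus 0.1 on a log scale for each library along the ILC1 run from peak_91415 and the NK run from peak_13405 (grey) with 5 regions on either side, counted from the start of the run. Orange lines are ILC1 libraries and blue lines NK libraries. From the second region of the ILC1 run to its last, ILC1 B (dashed orange) lies far below ILC1 A and C, between 0.164 and 0.983 CPM, while all 6 libraries agree at the tall region 4 places before the run's first, at 104 to 113 CPM. In the NK run NK A (solid blue) lies below NK B and C throughout.

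Neighbouring members also deviated together within a cell type. Over neighbours in runs that both reached 5 CPM in their own type, r of the deviations of log2 CPM from the type's mean was 0.50 in ILC1 runs (235 pairs) and 0.42 in NK runs (285 pairs). Without the 10 runs above it was 0.25 and 0.30, but these runs were picked for their spread, so that leaving them out lowers r, and pairs outside runs were not trimmed in this way. Between regions at the same place in successive runs of the type it was -0.02 and 0.04. Pairs outside runs with both regions scored for the type gave 0.25 and 0.44, and all pairs outside runs 0.13 and 0.21. These values are descriptions without a test, since the pairs share libraries and are not replicates.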

How the data were processed

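ATAC-seq was performed on liver ILC1s and liver NK cells of mice aged 24 weeks, 3 libraries each. Per the submitters' processing notes, the authors used Trimmomatic and Bowtie2 with the build mm10. According to the methods, mitochondrial and low-quality reads, duplicates and blacklisted regions were removed with pysam, Picard and the ENCODE list, peaks were called with MACS in each library in paired-end mode, merged with BEDtools and counted with featureCounts. The values the authors deposited are raw counts of fragments per merged region, without normalization or pooling. Merging joins overlapping peaks and thereby sets which regions count as neighbours. Low counts limit precision, since 1 fragment is worth more CPM in the shallower ILC1 libraries.

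From these counts, CPM were computed with library totals, and regions were scored and joined into runs as described, with Python 3.11.15, numpy 2.4.6 and pandas 2.3.3, after a check on invented counts with planted runs. Ratios of single regions used CPM plus 0.1 on the log2 scale, and those of sums and thresholds used CPM itself. edgeR 4.0.16 in R 4.3.3 (TMM, glmQLFit, glmQLFTest, cell type as the only term, Benjamini-Hochberg adjustment over the 106376 regions that held any fragment) gave the calls. DESeq2 1.42.0 was an alternative. Runs were named by rule: in each direction the 5 longest, with ties in length broken by the larger number of fragments over all libraries, the one with the most fragments and the one with the largest median ratio, with the regions nearest the thresholds. Runs outside this rule are said to be chosen after their values were seen. The members and lists were chosen with earlier results of these data known. Columns were grouped by the cell type in their names, and no column was left out. Alternatives were other scalings, thresholds, run lengths, pseudocounts, scores and the omission of each library.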

Additional observations from a re-analysis of the deposited data

How the results depend on the processing

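The number of runs depended on the limits of the rule much more than on scaling or on any library. Given as ILC1 runs and NK runs, with their regions, a minimum mean of 0.5 CPM gave 206 and 175 runs (1271 and 1134 regions), a minimum of 2 CPM gave 35 and 45 (203 and 277), and no minimum gave 657 and 399 (4320 and 2713). A ratio of 1.5 gave 217 and 174 runs (1318 and 1105), and a ratio of 3 gave 39 and 45 (239 and 296). Runs of 4 or more numbered 227 and 215 (1116 and 1099), runs of 6 or more 51 and 52 (359 and 397), and with single gaps allowed 224 and 194 (1499 and 1330). Runs of 6 or more were thus nearly equal in number. ILC1 runs outnumbered NK runs under looser limits, and NK runs outnumbered them under stricter levels and ratios. The cause was not tested.

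With TMM there were 94 and 111 runs, with DESeq2 size factors 101 and 105, with libraries thinned to the smallest total 103 and 97, with a score from the DESeq2 call 84 and 88. Without each library in turn, ILC1 runs numbered 92 to 114 and NK runs 98 to 104, with 551 to 684 and 625 to 659 regions. TMM kept 89.7% of the ILC1 run regions and all NK run regions, and thinning 86.4% and 88.4%. The median log2 ratio was 1.85 and -2.17 with a pseudocount of 0.5 CPM and 1.59 and -1.81 with 1 CPM. edgeR and DESeq2 counts over all regions stayed within 1.5 times under every alternative run, between 12182 and 17954 higher in ILC1s and between 11493 and 15984 higher in NK cells. The suffixes of the column names (none, 1 and 2) recur in both cell types but were not matched to replicate numbers in the labels. A fit with the suffix as a replicate block, chosen after seeing the data, called 15266 regions higher in ILC1s and 15248 higher in NK cells. Columns of the same suffix did not deviate together over the 57792 regions with a mean CPM of at least 1 (r of -0.06, -0.12 and -0.10). Other combinations gave 0.004 to 0.09. Deviations cancel within a cell type, which ties these values to each other, so they cannot decide on pairing. The suffixes were not treated as pairs, and whether both cell types came from the same animals is not stated. Low counts limit what can be said of the lower cell type in near-silent regions.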
